A study of Drosophila melanogaster with 3 samples.

Results

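The genes that set up the posterior compartment of the fly wing disc and carry its Hedgehog signal, en, inv, hh, ptc, smo, cos and ci, were examined for anti-HA CUT&Tag peaks. They were 7 of the 17807 genes of the gene table. A peak was taken as theirs when it overlapped the dm6 span of the gene or the 10 kb on either side, and the window of en and inv included the gap between them. The peaks came from wing discs of third-instar Drosophila melanogaster larvae of the genotype nub>GFP;UAS-BunA-HA. These larvae carry a UAS transgene for HA-tagged BunA, an isoform of bunched, and express it with GFP under the nubbin driver. CUT&Tag uses an antibody-tethered transposase to tag the DNA close to the bound protein. All 3 libraries belong to 1 group and are called replicates 1 to 3. They correspond to numbers 2, 3 and 4 in their titles, and they held 9268, 9005 and 9225 peaks. Whether the libraries derive from different animals or crosses is not stated in the labels, and an SD between them could reflect technical spread alone.

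Some features of the design limit what a peak means here. The tagged protein is made from a transgene, and the nubbin driver acts mainly in the wing pouch. No library without the tagged protein was analysed here, so BunA-HA near a site and accessible chromatin at that site cannot be told apart. Whole discs were used, so a strong peak in few cells and a weak peak in many cannot be told apart either. The peak lists hold no read counts, and the depth of each library is unknown. With 1 group there is no comparison between conditions, and no test was made.

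In the wing disc, posterior cells express the neighbouring homeodomain genes engrailed (en) and invected (inv), which give these cells their posterior identity. Engrailed keeps the gene for the transcription factor Cubitus interruptus (ci) silent in posterior cells and allows expression of hedgehog (hh), whose product is secreted towards anterior cells. There Hedgehog binds Patched (ptc), which otherwise holds the membrane protein Smoothened (smo) inactive. Smoothened then acts through the kinesin-like scaffold Costal 2 (cos), which controls the processing of Ci. Full-length Ci switches on targets along the compartment border, ptc itself among them. The en and inv genes lie side by side within a domain known for Polycomb repression.

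Peaks recurred at all 6 loci, and every one of the 7 genes had at least 1 region with a peak in each library. Peaks that overlapped by at least 1 bp were merged, and a merged region with a peak in all 3 libraries is called a consensus region. The windows held 38, 37 and 36 peaks in replicates 1, 2 and 3, 37.0 ± 1.0 (SD, n = 3). These merged into 50 regions, of which 27 (54%) were consensus regions, 7 had peaks in 2 libraries and 16 (32%) in 1. Over all chromosomes 53.1% of merged regions were consensus regions and 29.7% had a peak in 1 library, so recurrence in these windows was close to the background. The strength of a region is given as fold enrichment, the authors' ratio at the peak summit over the background that the peak caller estimated. The median fold of the 27 consensus regions was 9.17, against 6.1 for the regions of 2 libraries and 4.91 for those of 1. Summits of a consensus region lay a median of 40 bp apart across libraries, against 34 bp for all consensus regions.

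The en and inv genes shared a window of 73.7 kb on 2R with 7 consensus regions, and the strongest ones lay near the outer ends of the gene pair. inv (Dmel_CG17835) spans 11474465 to 11509695 and en (Dmel_CG9015) spans 11524006 to 11528210, with a gap of 14310 bp between them. The gene table gives no strand, so a gene's ends are named here by coordinate, and promoters cannot be told from 3′ ends. The strongest region, at 11475519 to 11475745, was centred inside inv, 1132 bp from its low-coordinate end. Its fold was 22.8, 19.9 and 19.2 in replicates 1, 2 and 3, a mean of 20.6 ± 1.93 (SD, n = 3). That mean placed it above about 98% of the peaks of each library (mean within-library percentile 98.2).

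At en the consensus regions clustered beyond the high-coordinate end. A region at 11527917 to 11528459 overlapped that end, with its centre 141 bp outside the gene, and at 543 bp it was the widest of the 27. Its fold was 14.0, 19.2 and 15.9, a mean of 16.4 ± 2.62 (SD, n = 3), so replicate 2 was the highest and replicate 1 the lowest. A further region followed 1324 bp away, at 11529490 to 11529813, with folds of 13.1, 12.4 and 12.4. Its mean of 12.6 ± 0.444 lay below all 3 values of its neighbour. No consensus region was centred inside en.

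The gap between inv and en held 1 consensus region, at 11516337 to 11516784, centred 6773 bp from inv. Its fold was 12.5, 12.4 and 10.9, a mean of 11.9 ± 0.894 (SD, n = 3). Beside it, at 11516011 to 11516175, replicates 1 and 3 had a weaker peak of 5.86 and 6.74, and replicate 2 had none. The remaining consensus regions were weak. Inside inv they were at 11489605 to 11489775 (6.04 ± 0.806) and 11493638 to 11494082 (7.56 ± 0.608). Another at 11469505 to 11469676 (6.79 ± 0.403) was centred 4849 bp outside inv and 4346 bp from E(Pc), a chromatin regulator gene.

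The inv gene also had the most positions that did not recur in every library. Of 15 merged regions in its own window, 5 had peaks in 2 libraries and 5 in 1. One of the regions with peaks in 2 libraries, at 11509017 to 11509240, lay 612 bp inside the high-coordinate end of inv. It had folds of 6.38 and 7.67 in replicates 1 and 3 and no peak in replicate 2.

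**Figure D1:**
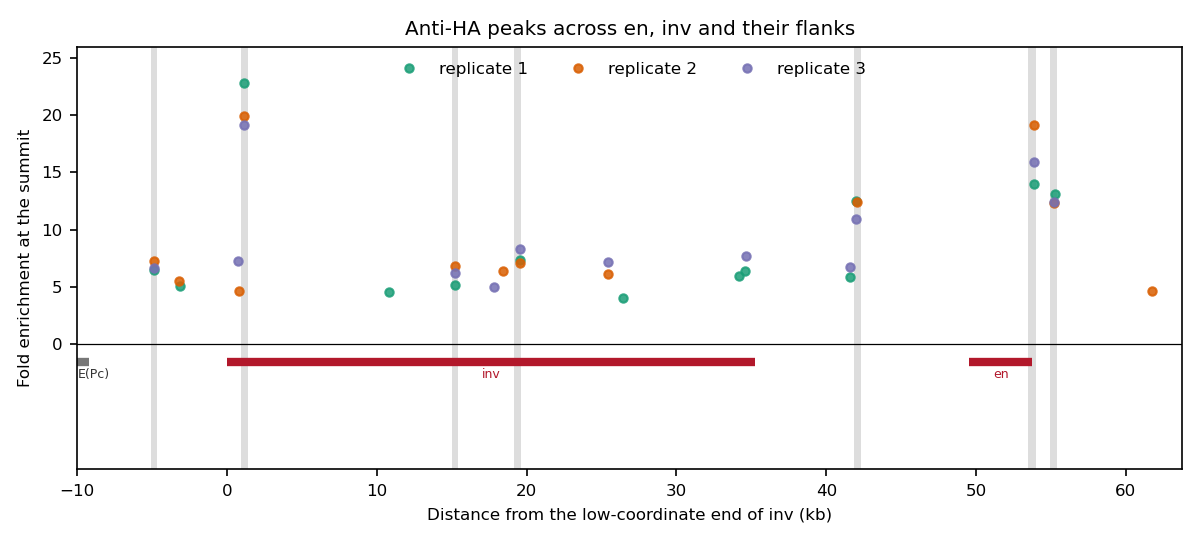
Fold enrichment at the summit of each anti-HA peak (points, coloured by replicate) against distance in kb from the low-coordinate end of inv; grey bands mark the 7 consensus regions (narrow ones widened to be visible) and bars below 0 mark genes, red for en and inv. The highest points stand just inside the low-coordinate end of inv (mean fold 20.6) and at the high-coordinate end of en (16.4), with 1 band in the gap between the genes (11.9).

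hh, the gene of the secreted ligand, had 5 consensus regions, and most lay beyond its high-coordinate end. Their mean folds ran from 3.73 to 12.5, with a median of 8.59, against 8.2 for all consensus regions. The gene (Dmel_CG4637) spans 23128169 to 23141906 on 3R. A region at 23141859 to 23142364 overlapped the high-coordinate end, and its folds of 10.1, 10.7 and 11.5 gave a mean of 10.7 ± 0.706 (SD, n = 3). Its summits spread over 228 bp, more than in any other of the 27 regions. The next, at 23143484 to 23143797, had folds of 7.51, 9.63 and 7.55 (mean 8.23 ± 1.21), with replicate 2 above the others. Inside the gene a region at 23132256 to 23132610 had a fold of 8.59 ± 0.509.

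The strongest region of the hh window stood apart from the gene. It lay at 23148699 to 23149082, 6908 bp outside hh and 839 bp from unk, which encodes a zinc finger protein. Its folds of 12.1, 12.6 and 12.9 differed little between libraries, a mean of 12.5 ± 0.397 (SD, n = 3). A weak region 354 bp away, at 23148352 to 23148557, recurred as well, with folds of 3.50, 3.94 and 3.76. Its mean of 3.73 ± 0.221 was the lowest of the 27 regions, and its −log10 q-value of 4.72 in replicate 1 was the lowest of their peaks. Another 5 positions in the hh window had a peak in 1 library, 3 of them in replicate 1 between that weak region and the gene.

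ptc, the receptor gene and a target of the pathway, had 8 consensus regions, the most of the 7 genes. The gene (Dmel_CG2411) spans 8649649 to 8665223 on 2R. A run of 3 regions led up to its low-coordinate end. The nearest, at 8649382 to 8649653, was centred 136 bp outside the gene and had folds of 13.0, 10.5 and 12.9, a mean of 12.1 ± 1.43 (SD, n = 3). The next, at 8648742 to 8648902, had folds of 7.12, 7.71 and 8.11 (mean 7.65 ± 0.498). The outermost, at 8647514 to 8648048, had folds of 4.30, 5.78 and 4.19 (mean 4.76 ± 0.886). The means therefore fell with distance from the gene end, and the libraries of neighbouring regions did not overlap in fold.

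Inside ptc a strong region stood 6176 bp from the low-coordinate end, at 8655529 to 8655951. Its folds were 14.7, 14.2 and 14.3, a mean of 14.4 ± 0.245 (SD, n = 3), close to equal in the 3 libraries. A weaker one at 8652638 to 8652818 had folds of 5.30, 5.36 and 3.69, with replicate 3 the lowest.

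The other ptc regions belonged by position to neighbours. The strongest of the window, at 8668828 to 8669025, was 3703 bp beyond ptc and inside Acsl, a long-chain acyl-CoA synthetase gene. Its folds were 18.2, 13.0 and 18.9, a mean of 16.7 ± 3.20 (SD, n = 3), with replicate 2 well below the others and the largest SD of the 27 regions. A region at 8667676 to 8667881, also inside Acsl, had folds of 8.21, 8.60 and 7.71. The last, at 8639651 to 8640149, had 10.7 ± 1.42 and was centred 9726 bp outside ptc, at the edge of the window and nearer to CG8635.

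smo, which encodes the transducer that Patched restrains, had the fewest regions, and no consensus region within 1000 bp of the gene. The gene (Dmel_CG11561) spans 277582 to 282167 on 2L. Its window had 1 consensus region, at 285603 to 285858, which was 3604 bp beyond the gene and inside CG3625. That region was strong, with folds of 19.7, 20.7 and 21.5, a mean of 20.6 ± 0.914 (SD, n = 3), and its summits fell on the same base in the 3 libraries. Close to smo itself there was a weak region at 277222 to 277351, 293 bp from the low-coordinate end and inside CG17078. It had folds of 5.98 and 6.21 in replicates 1 and 2 and no peak in replicate 3.

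cos, the gene of the kinesin-like scaffold, had a consensus region beside each end and none inside. The gene (Dmel_CG1708) spans 7382176 to 7387115 on 2R. The region at its low-coordinate end, at 7381750 to 7382075, had folds of 20.8, 20.6 and 17.3, a mean of 19.6 ± 2.01 (SD, n = 3), with replicate 3 the lowest. Its centre fell between genes, 198 bp from cos and 79 bp from Dscam1, a neuronal adhesion receptor gene. The region at the other end, at 7387297 to 7387458, was centred 269 bp beyond cos and inside Dhx15, an RNA helicase gene. It was weaker, with folds of 6.98, 7.76 and 9.71 (mean 8.15 ± 1.41), and did not overlap the former in any library.

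ci, the gene of the Gli-family transcription factor at the end of the pathway, had 4 consensus regions, and 3 of them lay at or beyond its high-coordinate end. The gene (Dmel_CG2125) spans 47710 to 57041 on chromosome 4. The strongest, at 58918 to 59336, was centred 2179 bp outside the gene and had folds of 17.9, 14.9 and 15.3, a mean of 16.1 ± 1.63 (SD, n = 3), with replicate 1 above the others. Its summits lay within 1 bp of each other. A region 903 bp farther out, at 60018 to 60335, had folds of 9.35, 7.90 and 10.3. One at 56320 to 56567, inside ci and 596 bp from its end, had folds of 8.94, 9.43 and 8.13. All 3 also overlapped asRNA:CR43957, an antisense transcript gene that runs from 56497 to 63124. The last, at 43745 to 43841, had a mean fold of 6.63 ± 0.632 and overlapped PlexB, a semaphorin receptor gene.

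**Figure D2:**
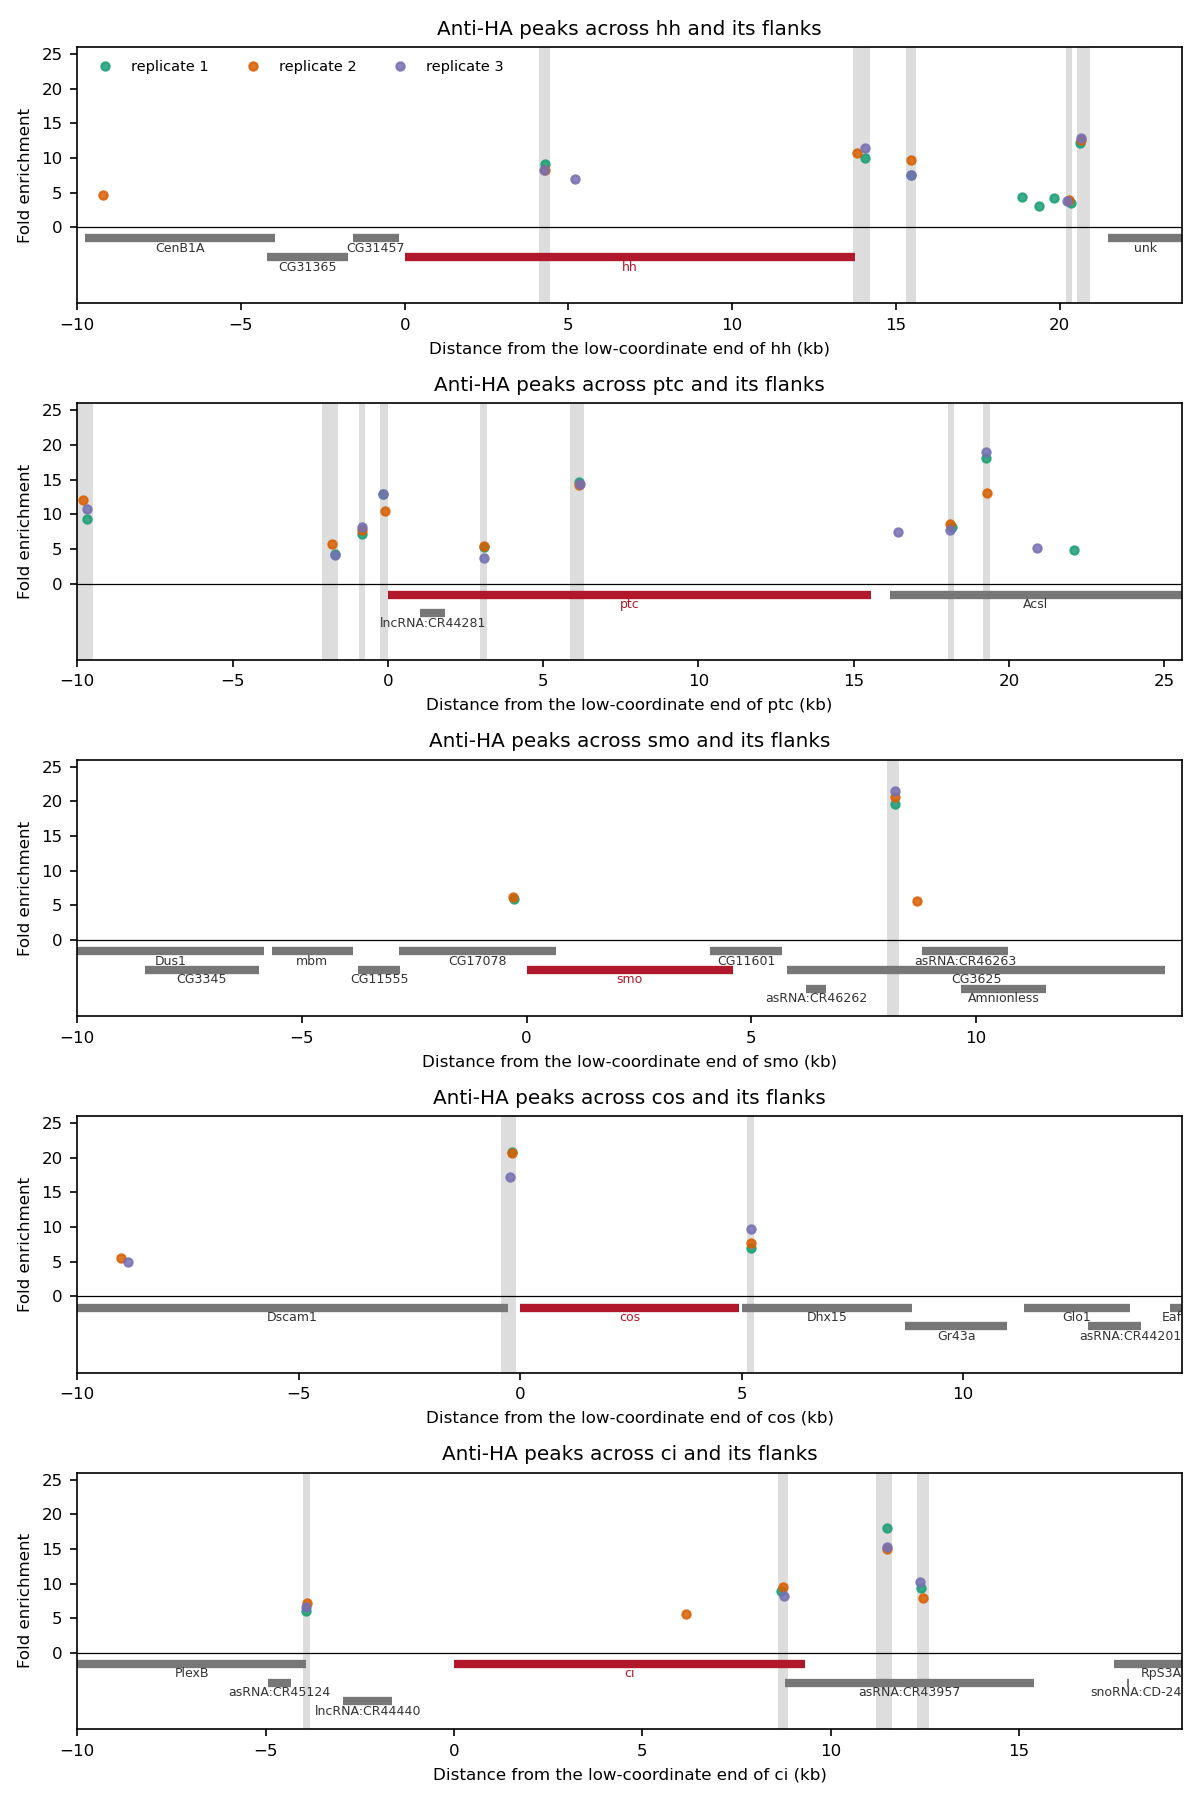
Fold enrichment at the summit of each anti-HA peak (points, coloured by replicate) against distance in kb from the low-coordinate end of hh, ptc, smo, cos and ci; grey bands mark consensus regions (narrow ones widened to be visible) and bars below 0 mark genes, red for the named gene. The ptc window has 8 bands and the smo window 1, which stands inside the neighbouring gene CG3625 at a mean fold of 20.6.

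Ordered by the fold of the strongest region in each gene's window, inv (20.6 ± 1.93; SD, n = 3) and smo (20.6 ± 0.914) came before cos (19.6 ± 2.01). Then followed ptc (16.7 ± 3.20), en (16.4 ± 2.62), ci (16.1 ± 1.63) and hh (12.5 ± 0.397). Neighbours in this order differed by less than the larger of their SDs down to ci, and their libraries overlapped. Between ci and hh the difference of 3.54 exceeded both SDs, and the libraries did not overlap. This step depended on the window. It remained with flanks of 5 kb, where the strongest fold was 16.1 ± 1.63 at ci and 10.7 ± 0.706 at hh. With flanks of 1 kb, which leave out the ci region 2179 bp outside the gene, it was 8.83 ± 0.656 at ci and 10.7 ± 0.706 at hh. For smo, ptc, ci and hh the strongest region was nearer to another annotated gene than to the member or inside one, and at cos the nearest gene by a small margin was Dscam1. The strongest regions of en and inv had no closer neighbour. The −log10 q-values of the strongest regions did not keep the order by fold. In replicates 1, 2 and 3 they were 47.2, 79.5 and 64.2 at en, above the 45.6, 46.6 and 50.3 at smo. At hh they were 44.1, 42.8 and 46.0, and at ci 60.1, 44.9 and 45.6, so hh was not the lower in replicate 3.

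**Figure D3:**
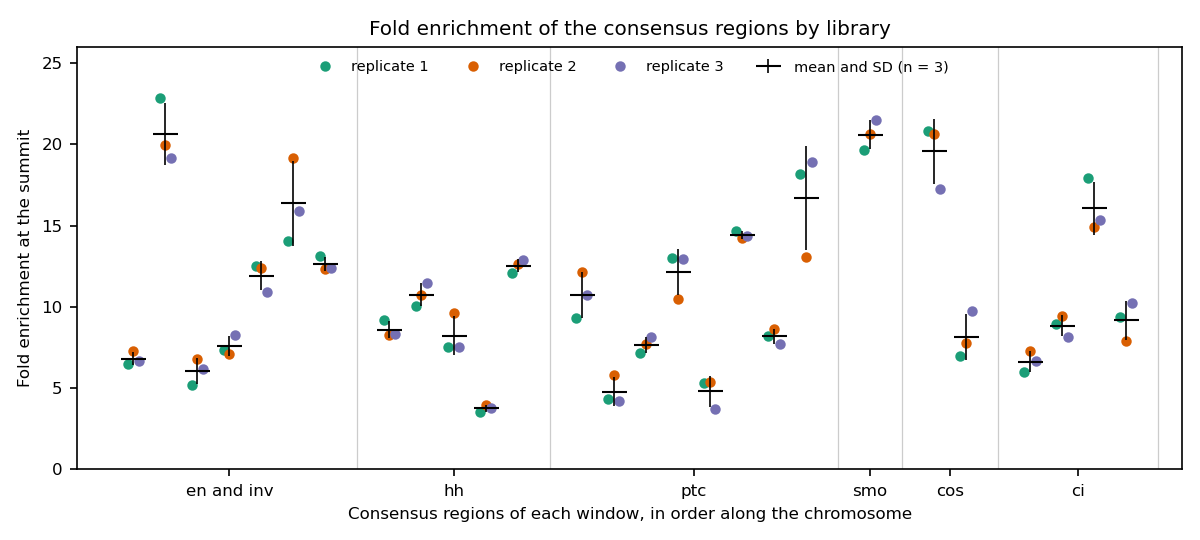
Fold enrichment at the summit of the 27 consensus regions, in order along the chromosome within each window; points are the 3 replicates, and the dash and line are the mean and SD (n = 3). The single smo region and the stronger cos region stand near 20, whereas no hh region has a mean above 12.5.

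Of the 27 consensus regions, 7 (25.9%) were centred inside one of the 7 genes and 20 outside. The genes make up 87.6 kb of the 222 kb of windows (39.5%), so most of the windows lies outside them. The difference between 25.9% and 39.5% was not tested. Of these 20, 8 were nearer to the member and 12 were nearer to another gene or inside it. Within 1000 bp of an end of one of the genes there were 7. Neither count was made over all consensus regions, so neither is read as particular to these genes. Median width was 314 bp in these windows and 237 bp over all consensus regions, and median fold was 9.17 and 8.2. A mean within-library percentile of 90 or more was reached by 7 of 27 (25.9%), against 12.1% of all consensus regions. That limit was chosen after the values were seen, so the contrast is description only. Another consensus region within 1500 bp, from centre to centre, was found for 14 of 27 (51.9%), against 46.9% overall.

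Counted by gene, the members had more consensus regions than most annotated genes, with smo as the exception. All 7 had a consensus region in the gene or its flanks, where 54.9% of the 17807 genes and 55.2% of protein-coding genes did, so this count alone says little. A consensus region within 1000 bp of either end was found at 5 of 7, namely en, hh, ptc, cos and ci, against 20.3% of all genes. A region overlapping the gene itself was found at 5 of 7, en, inv, hh, ptc and ci, against 14.8%. A region of percentile 90 or more lay in the windows of 6, all but hh, against 13.5%, a limit chosen after the values were seen. At smo, ci and cos the only such region was nearer to another annotated gene or inside one. The share over all genes was counted by the same rule. At least 4 consensus regions were found at 4 of 7, inv, hh, ptc and ci, against 10.5%. The median was 4 regions per gene, ranging from 1 at smo to 8 at ptc, against 1 over all genes.

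Gene length bears on these counts. The median length was 9332 bp for the members and 1695 bp for all genes, and longer windows can hold more regions. Per 10 kb of window the median was 1.24 for the members, against 0.398 for all genes. This density was 2.25 at ptc, 1.48 at hh, 1.36 at ci, 1.24 at en, 0.905 at inv, 0.802 at cos and 0.407 at smo. The ptc density was above that of 96.8% of genes, and the smo density above that of 50.5%. The part of gene length in the boundary and strong-region counts was not tested. Chromosome 4, which carries ci, differed from the whole genome on some of these measures. Of its 114 genes, 55.3% had a consensus region in the gene or its flanks, against 54.9% of all genes. A region within 1000 bp of an end was found at 32.5% (20.3% of all genes) and one overlapping the gene at 24.6% (14.8%). At least 4 regions were found at 6.14% (10.5%) and a region of percentile 90 or more at 8.77% (13.5%). Its median density was 0.270 per 10 kb.

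**Figure D4:**
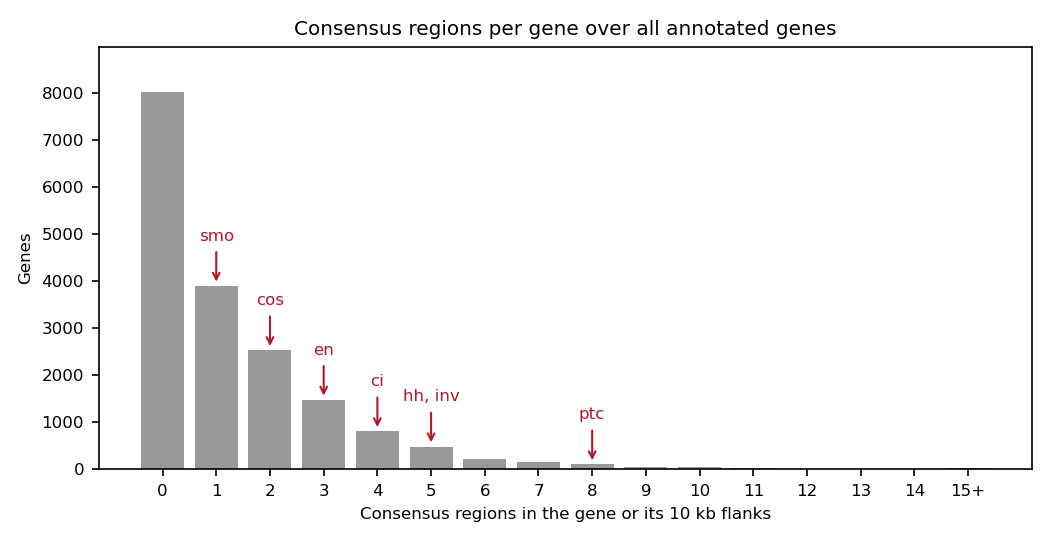
Number of annotated genes (bars) by the number of consensus regions in the gene or its 10 kb flanks; the last bar holds genes with 15 or more, and arrows mark the 7 genes. Most genes have 0 or 1, smo has 1 and ptc has 8.

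The edges of the windows decided a few regions. The outermost ptc region was the only consensus region centred more than 9 kb from its gene. Just beyond the windows lay a region 435 bp past the en side (fold 13.2 ± 1.66; SD, n = 3). Others lay 300 bp past the ptc window (8.16 ± 1.51) and 595 bp past the cos window (12.7 ± 1.23), on the low-coordinate sides. None of these was counted.

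The wider Hedgehog pathway, a list of 23 other genes, had consensus regions at most of its steps. Of these genes, 20 (87%) had a consensus region in the gene or its flanks, against 54.9% of all genes. Their median length was 15347 bp, against 1695 bp for all genes, and longer windows can hold more regions. Their median density was 0.857 per 10 kb, against 0.398. The part of gene length in the counts of this list was not tested. A region within 1000 bp of an end was found at 12 of 23, against 20.3%. A region of percentile 90 or more, the limit chosen after the values were seen, was found at 6, against 13.5%. The genes with no consensus region were disp, which encodes the transporter that releases Hedgehog, and fu and Su(fu), a kinase and a negative regulator that act on Ci. The windows of disp and fu had 3 and 2 merged regions that did not recur in every library, and that of Su(fu) had none.

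Genes for release and spread of the ligand (median length 7406 bp) had regions at 7 of 8 (87.5%), against 54.9% of all genes. They ranged from 1 region at ttv, a heparan sulfate synthesis gene, to 10 at dally, a glypican gene, whose strongest had folds of 15.6, 15.4 and 14.9. The glypican gene dlp had 8, and its strongest (12.3 ± 1.60; SD, n = 3) lay 8064 bp outside the gene. The synthesis genes sotv and botv had 6 and 2, all outside the genes. The acyltransferase gene rasp had 2, also outside it, and shf, which encodes a secreted factor, had 3 inside. The co-receptor genes ihog and boi had 2 and 5, with strongest folds of 8.32 ± 1.69 and 9.89 ± 2.36.

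Among the transducers (median length 16983 bp), regions lay at 7 of 9 (77.8%), against 54.9% of all genes. With so few genes this share is not read as a result. The kinase genes that phosphorylate Ci differed in strength. CkIalpha had folds of 23.0, 21.9 and 19.0 at 12654267 to 12654625 on X, a mean of 21.3 ± 2.02 (SD, n = 3), the highest of the pathway list. The kinase gene sgg had 8 regions, the strongest of 16.7 ± 0.410. Pka-C1 had 3, of which the strongest (10.7 ± 1.37) lay 65 bp outside the gene. The ubiquitin ligase genes rdx and slmb had 7 and 1, with strongest folds of 16.1 ± 1.08 and 10.9 ± 0.779. The coactivator gene nej had 10 (strongest 11.9 ± 0.847), and the G protein-coupled receptor kinase gene Gprk2 had 2 (10.7 ± 2.31).

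The targets of the pathway in the wing disc, dpp, kn, ara and caup, all had consensus regions, 4, 5, 3 and 4 of them. Over all genes 54.9% had one. The median length of these targets was 23400 bp, against 1695 bp for all genes. The strongest was beside caup, an Iroquois homeodomain gene, at 12609329 to 12609666 on 3L and 173 bp outside the gene. Its folds were 15.7, 21.0 and 20.0, a mean of 18.9 ± 2.84 (SD, n = 3), with replicate 1 the lowest. At its neighbour ara a region 167 bp outside the gene had folds of 10.8, 16.0 and 15.6, again lowest in replicate 1. Inside dpp, the gene of a secreted growth factor, the strongest region had 13.1 ± 1.30, and inside kn, a transcription factor gene for the central wing, 9.94 ± 0.628.

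**Figure D5:**
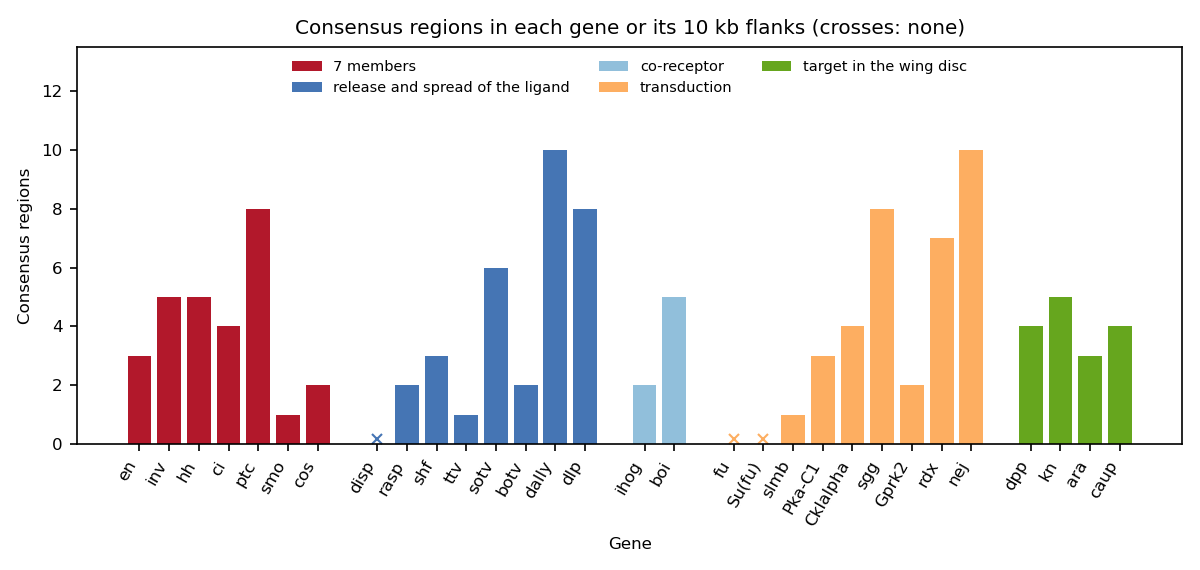
Consensus regions in each gene or its 10 kb flanks for the 7 genes and the 23 other genes of the Hedgehog pathway, coloured by role; crosses mark genes with none. The counts run from 0 at disp, fu and Su(fu) to 10 at dally and nej.

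A peak does not measure expression, so the tissue could not be checked through it, and only the presence and counts of regions are given. All 5 wing pouch genes on the marker list (nub, vg, rn, wg and Dll) had a consensus region in the gene or its flanks. All 5 also had one within 1000 bp of an end (20.3% of all genes) and one overlapping the gene (14.8%). A region of percentile 90 or more lay in the windows of all 5 (13.5%), and 4 had at least 4 regions (10.5%). Their median length was 20846 bp, and their median density was 1.16 per 10 kb, against 1.24 for the 7 members. High counts were therefore not particular to the members. Of 7 marker genes of myoblasts, tracheal cells and haemocytes, 4 had a consensus region in the gene or its flanks (twi, zfh1, trh and srp), whereas Him, btl and Hml had none. On the other measures, in the same order, these 7 genes gave 1, 4, 3 and 2. The share with any consensus region, 57.1%, was close to the 54.9% of all genes. With lists this short no count here is read as a difference between cell types.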

How the data were processed

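The deposited files are 3 peak lists on dm6, 1 per library. The submitters' processing notes name MACS2, Bowtie2 and Bowtie, FastQC and Trim Galore, HOMER, ChIPseeker, deepTools and R 4.2.1. Their roles and the read filters were not given in the sources used here. Per the labels' protocols, flies were kept at 25 °C, discs were dissociated at 37 °C and a Vazyme kit was used. Peak names in the deposited lists carry 1 library's name, so peaks were called per library. The authors' fold enrichment is a linear ratio, and the authors' −log10 p-value and −log10 q-value belong to single peaks. In 99.99% of peaks the deposited score is the −log10 q-value times 10 without its decimals.

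Peaks on 2L, 2R, 3L, 3R, 4, X and Y that overlapped by at least 1 bp were merged with Python 3.11.15, numpy 2.4.6 and pandas 2.3.3, and figures were drawn with matplotlib 3.10.9. A region's fold averages the highest peak of each library, and its centre is the mean of those peaks' summits. Percentiles rank folds within a library. Genes came from the RefSeq table of Release 6 plus ISO1 MT, the same assembly, which gives no strand or exons, so exonic or intronic position is not stated. All 35 list and marker names matched. The merging and counting steps were tested on simulated data. The 7 members and the lists were chosen with earlier results of these data known. All members and list genes are named, and other genes only where a region overlaps them or lies nearer to them. Alternatives changed the number of libraries, the overlap, the peak threshold, the flanks and the libraries. The planned search for 5 motifs was not run, as no sequence was used here.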

Additional observations from a re-analysis of the deposited data

How the results depend on the processing

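All 7 genes kept a consensus region under each alternative run except flanks of 1 kb, which left 6, all but smo. With flanks of 1 kb the consensus regions of the 7 genes fell from 27 to 14, the median per gene from 4 to 2, and the share of all genes with a region from 54.9% to 23.1%, by the construction of the smaller window. The number of consensus regions was 34 with peaks in at least 2 libraries, 26 with 50% reciprocal overlap, 26 with a −log10 q-value of at least 5, 20 with peaks above their library's median fold and 24 with flanks of 5 kb. Leaving out each replicate in turn, which asks for a peak in both other libraries, gave 29 to 30 regions, 7 genes, a median of 4 regions per gene, a median strongest fold of 16.6 to 18.5, 57.2% to 59.1% of all genes and 20 to 21 pathway genes. Without replicate 3, smo had 2 consensus regions in place of 1. With peaks in at least 2 libraries inv had 10 in place of 5, and with peaks above the median fold it had 2. With flanks of 5 kb hh had 3 in place of 5, and its strongest fold was 10.7. With flanks of 1 kb the strongest fold of ci was 8.83, below the 10.7 of hh, the reverse of their order with flanks of 10 kb. No paired analysis was possible because the 3 libraries form 1 group. The depth of the libraries is unknown, so a missing peak was not detectable under the authors' threshold and is not shown to be absent signal.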

Other observations

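Peaks of like fold differed in their −log10 q-value between these genes. Of all peaks with a fold of 12 to 13, the median −log10 q-value was 26.5, 25.6 and 25.1 in replicates 1, 2 and 3, and the upper quartile was 31.7, 32.9 and 31.4. Consensus regions of the 7 genes gave 10 peaks in this range, from 5 regions. In the gap between inv and en the values were 25.4 in replicates 1 and 2, and at the outermost ptc region 28.7 in replicate 2, all below the upper quartile. At the region beyond the end of en they were 40.8 and 43.5 in replicates 2 and 3, and at the region near unk in the hh window 44.1, 42.8 and 46.0. At the low-coordinate end of ptc they were 52.4 and 50.3 in replicates 1 and 3. Ranking by fold and ranking by −log10 q-value therefore order these regions differently, and the cause was not tested.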
